A study of Mus musculus with 3 samples.

Results

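The genes described here are the erythroid and globin genes of the mouse embryo, as they were read in the primordia of the esophagus, the stomach and the intestine. They are 9 genes chosen by name, out of 16998 genes with a named probe. These are the globins Hbb-y, Hbb-bh1, Hba-x and Hba-a1, the heme enzyme Alas2, the membrane transporter Slc4a1, the transcription factors Klf1 and Gata1, and the receptor Epor. All 9 had a probe, 10 probes in all, and every one was well above background on every array. The study dissected the organs from ICR embryos at E11.5, extracted total RNA, labelled it with Cy3 and hybridised it to Agilent arrays of 1 colour. Each organ was represented by 1 array, and the embryos carried no named allele or treatment. There is therefore no replicate check on any difference and no test was run. The labels do not say how many embryos stand behind an array. Their extraction text speaks of the stomach for all 3 samples, so the organs were taken from the other labels.

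Red cells of the early mouse embryo arise first in the yolk sac and circulate as primitive, nucleated erythroblasts. They carry hemoglobin of embryonic chains, Hbb-y (epsilon-y) and Hbb-bh1 (beta-h1) paired with Hba-x (zeta) and the alpha chain Hba-a1. The fetal liver then becomes the site of definitive erythropoiesis, in which adult beta chains replace the embryonic ones. GATA1 and KLF1 are the transcription factors that drive the erythroid programme, including the globin loci, Alas2 and membrane genes, and EPOR is the receptor through which erythropoietin supports erythroid progenitors.

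Levels are given as log2 of the processed signal relative to the 75th percentile of the array's spots (a log2 level), and differences are differences of such levels. Values in a series of 3 follow the order esophagus, stomach, intestine. The 75th percentile was a signal of 393, 334 and 1023. Between 67.9% and 74.0% of spots were well above background. Relative to that percentile the 8 spike-in probes used read 3.79, 3.86 and 2.86, so the intestine array stood apart from the other arrays on that scale. No spot was saturated, and the scanner's saturation value was 778393. The SD of the difference between probes of 1 gene was 0.25 log2 units between stomach and esophagus, 0.46 between intestine and esophagus and 0.31 between intestine and stomach. The scanner software's own error model gave each difference of a member an error of 0.20 log2 units, or 0.23 to 0.25 for Gata1. Marker genes of each organ were highest on the array labelled with it. Trp63 was highest in esophagus (0.25), Barx1 in stomach (4.43) and Cdx2 in intestine (1.85).

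The embryonic globins read slightly higher in stomach than in the other organs and nearly equal in esophagus and intestine, although with spike-in scaling intestine read highest. Hbb-y, the epsilon-y chain, stood at 6.83 in esophagus, 7.58 in stomach and 6.85 in intestine. Its stomach value was 1.68-fold that of esophagus, and the esophagus and intestine differed by 0.02 log2 units, far less than the SD between probes. Hbb-bh1, the beta-h1 chain, was measured by a pair of probes. The brighter probe read 5.65, 6.15 and 5.63, and the other read 5.53, 6.05 and 5.59. Both probes of Hbb-bh1 put stomach highest on this scale, by 0.50 and 0.53 log2 units over esophagus. Hba-x, the zeta chain, stood at 5.68, 6.25 and 5.72, again with stomach highest. Hba-a1, the alpha chain shared by embryonic and later hemoglobins, stood at 6.98, 7.12 and 6.84, and its neighbours in that order differed by less than the SD between probes. Whether an organ held fewer red cells or less globin RNA per cell cannot be told apart in tissue RNA.

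**Figure D1:**
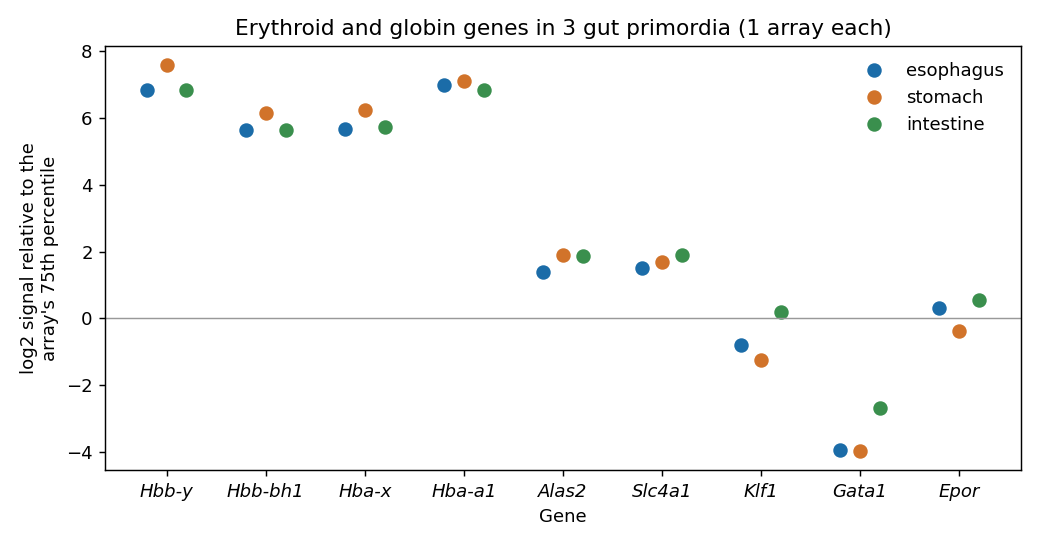
Log2 signal relative to the array's 75th percentile (vertical axis) for the 9 genes (horizontal axis), with 1 point per organ and 1 array per organ. The 4 globins lie close together across organs with stomach uppermost (intestine is uppermost with spike-in scaling), whereas Klf1 and Gata1 are highest in intestine. Heights of different genes come from different probes and are not comparable.

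Over the 4 globins the median of stomach minus esophagus was 0.54 log2 units, that of intestine minus esophagus 0.00 and that of intestine minus stomach −0.53. Both comparisons with intestine depended on the scaling. Intestine minus esophagus was 0.50 after median centring and 0.93 when the arrays were scaled on their spike-ins. Intestine minus stomach was −0.23 after median centring and turned to 0.47 with the spike-in scaling. Of the 8 alternatives tried, 5 change the scaling, the background or the value table. The deposited value table holds the same signals less a constant, so it could hardly change a difference. The others, on dim probes and on genes with several probes, leave every member but Hbb-bh1 as it was by construction. Under those 5, stomach stayed above esophagus for Hbb-y, Hbb-bh1 and Hba-x, with Hbb-y between 0.46 and 1.06. Hba-a1 lay between −0.08 and 0.35, on both sides of 0.

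The sequences of near-identical globins may limit what these probes can separate. The Hba-a1 gene has a twin, Hba-a2, for which no probe was named, and the 2 promoters of the RefSeq table (GRCm38.p6) matched at 297 of 297 aligned bases. Such a promoter window is mostly not transcribed, so this match does not tell whether a probe separates their RNAs. The probe sequences were not given in the files, so the value of Hba-a1 may hold RNA of both alpha genes. Hbb-y, Hbb-bh1 and the adult gene Hbb-bt are related beta-like genes, and their probes were not checked for cross-hybridisation.

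In the comparisons with stomach the adult beta chain did not follow the member globins, among them Hba-a1, which later hemoglobins share. Hbb-bt, an adult beta-globin gene whose copies are near-identical and cannot be told apart here, had 4 probes. Its brightest probe stood at 6.97, 6.67 and 6.87. In intestine the 4 probes of Hbb-bt read 0.19 to 0.51 log2 units above stomach, while the 5 probes of the member globins read 0.28 to 0.73 below it (−0.73 to −0.28). Against esophagus the stomach values of Hbb-bt were −0.30 to −0.03, and those of the member globins 0.14 to 0.75. The probe sets did not overlap in either comparison. Between stomach and esophagus, however, the nearest probes, Hba-a1 at 0.14 and an Hbb-bt probe at −0.03, lay within the SD between probes (0.25) of 0. How often probe sets of other genes lie apart in this way was not counted. The sets also stayed apart under normexp correction and quantile normalization, a check chosen after the data were seen. Median centring, spike-in scaling and the deposited table shift an array by a constant or nearly so, and could not have changed this. Intestine minus stomach with normexp correction was −1.02 to −0.05 for the member globins and 0.27 to 0.72 for Hbb-bt. With quantile normalization it was −0.31 to 0.18 and 0.42 to 0.75. The spike-in scaling put the sets at 0.27 to 0.71 and 1.19 to 1.51. Between intestine and esophagus the ranges overlapped (−0.14 to 0.06 and −0.11 to 0.49). Hbq1a and Hbq1b, the theta-like globins, were dim and flat. Hbq1a stood at −4.41, −4.47 and −4.46 in esophagus, stomach and intestine, and Hbq1b at −3.19, −3.17 and −3.25.

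**Figure D2:**
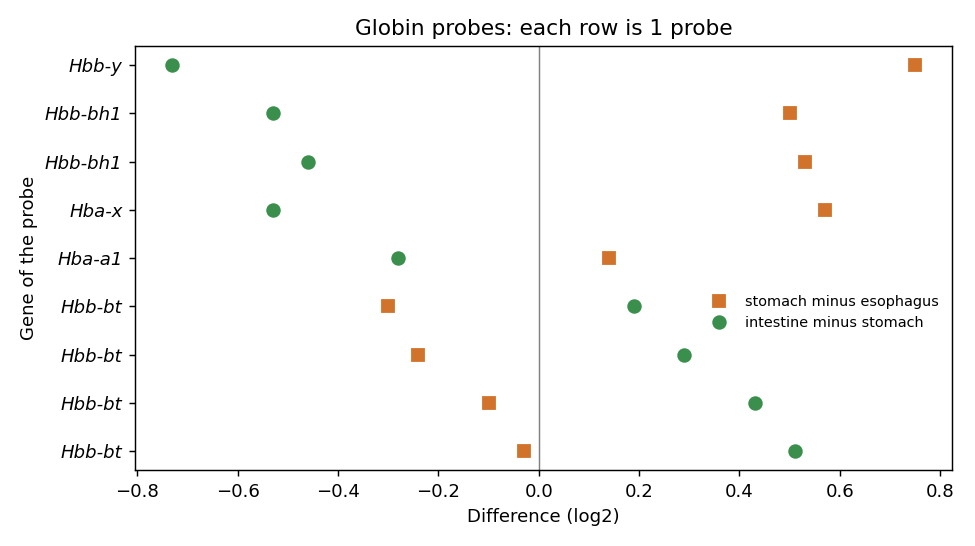
Difference in log2 level (horizontal axis) for each globin probe (1 probe per row, labelled with its gene), as stomach minus esophagus (squares) and intestine minus stomach (circles). The 5 probes of Hbb-y, Hbb-bh1, Hba-x and Hba-a1 have stomach above both other organs, and the 4 probes of Hbb-bt have it below both. With the spike-in scaling all 9 circles lie above 0, and the sets stay apart because that scaling shifts every probe alike.

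Alas2 and Slc4a1, which serve hemoglobin and the red cell membrane, differed by less than 2-fold between organs on this scale. With spike-in scaling both passed 2-fold between intestine and esophagus (1.42 and 1.31 log2 units), where 52.4% of all genes were higher in intestine. Alas2, the erythroid enzyme that starts heme synthesis, stood at 1.40 in esophagus, 1.91 in stomach and 1.88 in intestine. Esophagus was lowest, by 0.52 log2 units against stomach and 0.49 against intestine, and stomach and intestine differed by 0.03. Slc4a1, the band 3 anion exchanger of the red cell membrane, stood at 1.52 in esophagus, 1.70 in stomach and 1.90 in intestine. None of its differences (0.18, 0.37 and 0.20) exceeded the SD between probes of a gene in its comparison. With the spike-in scaling Slc4a1 was also 1.19 log2 units above stomach in intestine.

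The 2 erythroid transcription factors were highest in intestine, although for Gata1 normexp background correction removed the difference from stomach. Klf1, the erythroid Kruppel-like factor, stood at −0.81 in esophagus, −1.25 in stomach and 0.18 in intestine. In intestine it was 2.70-fold higher than in stomach and 1.98-fold higher than in esophagus. Stomach was the lowest, 0.44 log2 units under esophagus, whereas the embryonic globins had stomach highest on this scale. The difference of intestine and stomach in Klf1 ranged from 1.23 to 2.43 log2 units over the alternatives, and that of intestine and esophagus from 0.95 to 1.92.

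Gata1, the zinc finger factor of erythroid and megakaryocytic cells, was printed many times on each array and was dim. The processed signals of its spots are given first without scaling by the array's 75th percentile (393, 334 and 1023), and so do not compare between arrays. They were 22.0 to 30.6 in esophagus (9 spots, median 24.9), 15.8 to 28.6 in stomach (10 spots, median 21.3) and 152 to 166 in intestine (10 spots, median 158). On the scaled log2 level the mean of Gata1 was −3.95, −3.97 and −2.69, with SDs over spots of 0.15, 0.23 and 0.05. No spot in intestine overlapped those of the other organs, whose ranges overlapped each other. The intestine value was 2.39-fold that of esophagus and 2.44-fold that of stomach. This spread is that of spots on 1 array and says nothing of embryos. The Gata1 difference also rests on dim signals in esophagus and stomach. With normexp background correction, whose offset of 50 exceeds those signals, it was 0.13 against esophagus and −0.01 against stomach. That offset is the same on every array, so after scaling it raises dim signals less in intestine than in the other organs.

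**Figure D3:**
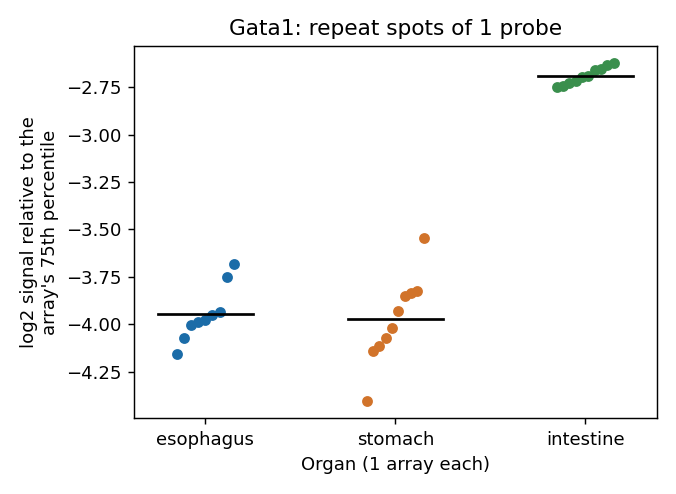
Log2 signal relative to the array's 75th percentile (vertical axis) for each repeat spot of the Gata1 probe in each organ (horizontal axis), 9 spots in esophagus and 10 in each other organ. Lines mark the mean over spots, and the intestine spots lie between −2.75 and −2.62, above all others.

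Epor had its lowest value in stomach, at 0.30 in esophagus, −0.37 in stomach and 0.56 in intestine. Intestine was 1.90-fold and esophagus 1.59-fold above stomach, and intestine and esophagus differed by 0.26 log2 units, less than the SD between probes. The 2 differences from stomach kept their sign under the 5 alternatives that can change them, at 0.83 to 1.92 for intestine and −0.73 to −0.46 for stomach against esophagus. Among these, the deposited table holds the same signals and could hardly move them (0.91 and −0.66).

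Relative to the 4 member globins, Klf1, Gata1 and Epor stood further apart in both comparisons with stomach than on the array's own scale. Their differences between intestine and esophagus were as before. The widening depends on the globins chosen. The 4 probes of Hbb-bt lay at 0.19 to 0.51 for intestine minus stomach and at −0.30 to −0.03 for stomach minus esophagus. Relative to Hbb-bt, Klf1 and Epor would stand less far apart in both comparisons than on the array's own scale. Subtracting the median difference of the 4 globins cancels any constant that rescales an array, including the spike-in scaling. Against stomach, intestine had Klf1 at 1.96 log2 units above the globins (3.89-fold), Gata1 at 1.81 (3.51-fold), Epor at 1.46 (2.74-fold) and Slc4a1 at 0.73 (1.65-fold). Alas2 was at 0.50. Against esophagus, intestine had Klf1 at 0.99 and Gata1 at 1.26 above the globins, the latter at 0.02 after normexp correction. In stomach against esophagus Alas2 lay at −0.02, level with the globins, and Klf1 lay 0.98 and Epor 1.21 log2 units under them (−0.98 and −1.21). Over the alternatives the relative value for intestine against stomach ranged from 1.57 to 1.96 for Klf1 and from 1.15 to 1.46 for Epor, but from 0.34 to 1.81 for Gata1, the low end again being normexp correction.

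**Figure D4:**
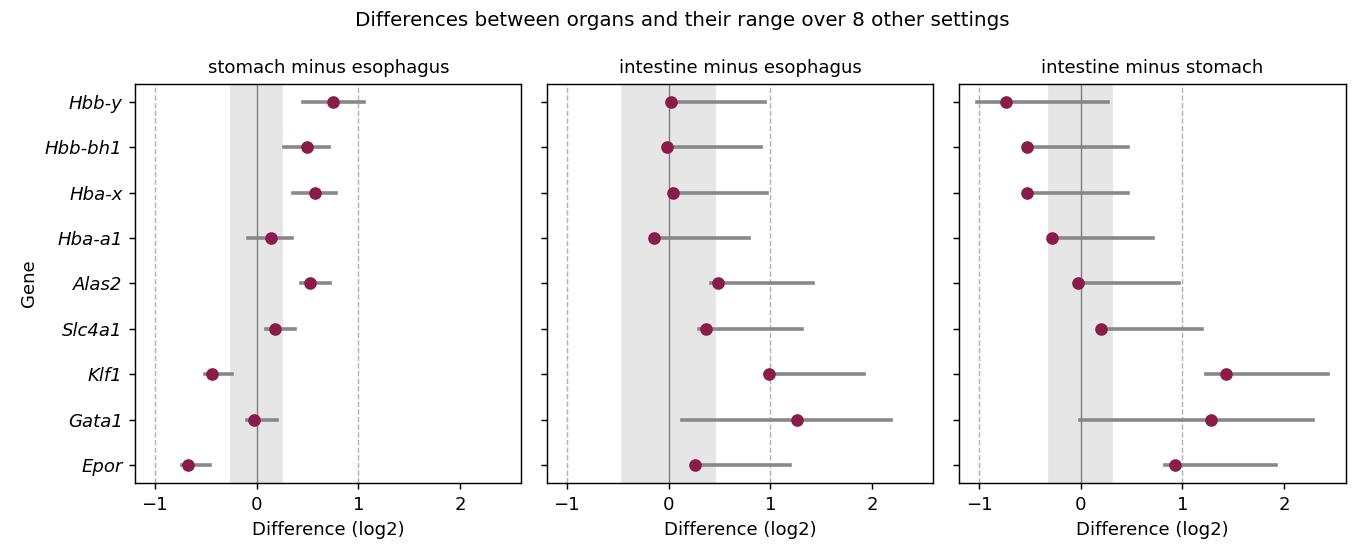
Differences in log2 level between organs (horizontal axes) for the 9 genes (vertical axis). Points are the values reported, grey lines span the 8 alternative settings, shading marks the SD between probes of a gene, and dashed lines mark 2-fold. The long lines to the right in the comparisons with intestine come from the spike-in scaling, which moves all genes alike, and the long line to the left for Gata1 from normexp correction.

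At a threshold of 4-fold 0 of 9 genes were apart in any comparison, although with spike-in scaling 1 was between intestine and esophagus and 2 between intestine and stomach. With that scaling 1037 of 14436 genes were that much higher and 196 lower in intestine than in esophagus, and 682 and 61 of 14372 against stomach. On the array's own scale 2.26% of 13737 genes were that far apart between stomach and esophagus, 0.684% higher and 1.58% lower in stomach. Between intestine and esophagus it was 5.67% of 13905, 1.82% higher and 3.85% lower in intestine, and between intestine and stomach 2.72% of 13820, 1.43% higher and 1.29% lower. At 2-fold, a threshold set after the data were seen, 0 of 9 differed between stomach and esophagus, where 9.85% of all genes did (4.14% higher, 5.71% lower in stomach). Between intestine and esophagus 1 of 9, Gata1, was higher in intestine and 0 lower, where 20.7% of all genes were apart (8.74% higher, 12.0% lower). Between intestine and stomach 2 of 9, Klf1 and Gata1, were higher in intestine and 0 lower, where 12.4% of all genes were apart (4.96% higher, 7.47% lower). The count between intestine and esophagus was 0 after normexp correction, where 4.91% of all genes were higher and 13.1% lower. With the spike-in scaling 5 were higher, beside 52.4% of all genes. Between intestine and stomach normexp correction left 1 higher (Klf1) and made 1 lower (Hbb-y, at −1.02), beside 2.0% and 13.1% of all genes. The spike-in scaling gave 4 higher there, beside 46.1% of all genes. Both spike-in counts lie near these shares, so no result about the members can be read from them. Beyond the SD between probes lay 6, 3 and 6 of the 9 genes in these 3 comparisons, beside 63.3%, 52.8% and 51.7% of all genes, shares near which no result about the members can be read. The median over the 9 genes was 0.18, 0.26 and −0.03 in the same order, against 0.15, 0.13 and −0.02 over all genes.

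Among other genes of red cells, 11 of 18 of those of the membrane were lowest in stomach, as Klf1 was, but the share over all genes was not counted. These and the following lists were chosen with earlier results of these data known. Endothelial genes were lowest in stomach in 11 of 16 cases, heme synthesis genes in 3 of 11 and macrophage genes in 1 of 14. All 18 red cell membrane genes were measured in each comparison. The median of stomach minus esophagus was −0.42, with 12 of 18 below 0. That of intestine minus esophagus was 0.48, with 14 of 18 above 0, and that of intestine minus stomach 0.78, with 15 of 18 above 0. The shares of all genes above and below 0 were not counted, and the medians of all genes were 0.15, 0.13 and −0.02. By at least 2-fold, 5 of 18 were above their stomach value in intestine and 1 was below it, where 4.96% of all genes were higher and 7.47% lower. The counts were 0 and 1 after normexp correction, beside 2.0% and 13.1% of all genes. They were 15 and 0 with the spike-in scaling, beside 46.1% and 1.24%. Icam4, a red cell adhesion molecule, was 1.46 log2 units higher in intestine than in stomach, Rhag, the Rh-associated glycoprotein, 1.43, and Ermap 1.24. Tmod1 and Ank1, which cap or anchor the membrane skeleton and also serve muscle, were lower in stomach than in esophagus, at −1.82 and −1.65. Signals under 50 were read for 4 of 18 genes in esophagus, 8 in stomach and 0 in intestine. With normexp correction the list medians were −0.15, −0.20 and 0.20, so the sign of intestine minus esophagus turned. The offset of that correction raises dim genes less in intestine than in the other organs.

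The other erythroid transcription factors were mixed. Of 14 measured, 2 had an intestine value at least 2-fold above stomach and 1 a lower one (4.96% and 7.47% of all genes), and the median was 0.11. Hemgn, a nuclear protein of erythroid cells, stood at −0.69 in esophagus, −1.19 in stomach and 0.24 in intestine, 1.43 log2 units higher in intestine than in stomach. Lmo2, a bridging protein of the erythroid complex, was 2.14-fold and Gfi1b, an erythroid and megakaryocytic repressor, 1.96-fold higher in intestine than in stomach. Runx1, a factor of blood progenitors that other cells express too, went the other way, at −1.97 in esophagus, −3.24 in stomach and −4.58 in intestine.

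Heme synthesis genes, most of which every cell uses, differed by less than 2-fold in all 3 comparisons on this scale (0 of 11). Of all genes 9.85%, 20.7% and 12.4% passed 2-fold in these comparisons, in either direction. With spike-in scaling 9 of 11 heme synthesis genes passed 2-fold upward in each comparison with intestine. So did 52.4% of all genes against esophagus and 46.1% against stomach. On the array's own scale the medians of the heme list were 0.19, 0.43 and 0.19 in the 3 comparisons. Alas1, the housekeeping counterpart of Alas2, was 0.82 log2 units higher in stomach and 0.79 higher in intestine than in esophagus. In the iron list, Tfrc, the transferrin receptor through which erythroblasts take up iron, stood at −1.20, −0.54 and 0.87. It was 2.07 log2 units higher in intestine than in esophagus. Slc40a1, the iron exporter, was 1.92 log2 units higher in stomach and 1.72 higher in intestine than in esophagus. Tfr2 was 1.81 log2 units higher in intestine than in stomach, and Ireb2 was lower in intestine, at −2.18 against esophagus. The median of the iron list was 0.25, 0.33 and 0.02 in the 3 comparisons.

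Of the erythropoietin pathway list, Epo itself was well above background in intestine alone, at −6.57, near the floor of that array, and no fold is given. Kit, the stem cell factor receptor of early erythroid progenitors and of other cells, was 1.09 log2 units higher in intestine than in each other organ. Its ligand Kitl was 1.12 higher in intestine than in esophagus. The median over 10 measured genes was 0.09, 0.05 and 0.03. Among red cell enzymes and cytoplasmic proteins the median was 0.29, 0.77 and 0.33. In intestine 4 of 10 stood at least 2-fold above esophagus and 0 below, beside 8.74% and 12.0% of all genes. The count above was 1 after normexp correction, beside 4.91% of all genes, and 9 with the spike-in scaling, beside 52.4%. Among the 4 on the array's own scale, Trim10, a ubiquitin ligase gene of erythroid cells, was 1.32 log2 units and Tspo2 1.04 log2 units higher. Across all 7 lists together, 12 of 75 genes stood at least 2-fold above stomach in intestine and 3 below, with a median of 0.21, where 4.96% of all genes were higher and 7.47% lower. Relative to esophagus, 11 of 74 were higher in intestine and 4 lower (8.74% and 12.0% of all genes), and 3 were higher in stomach and 5 lower (4.14% and 5.71%). After normexp correction 3 of 74 were higher and 3 lower in intestine than in stomach, beside 2.0% and 13.1% of all genes under that correction. With the spike-in scaling, which raises intestine for all genes, 53 of 76 were higher there than in stomach, beside 46.1% of all genes, and 52 of 76 higher than in esophagus, beside 52.4%.

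**Figure D5:**
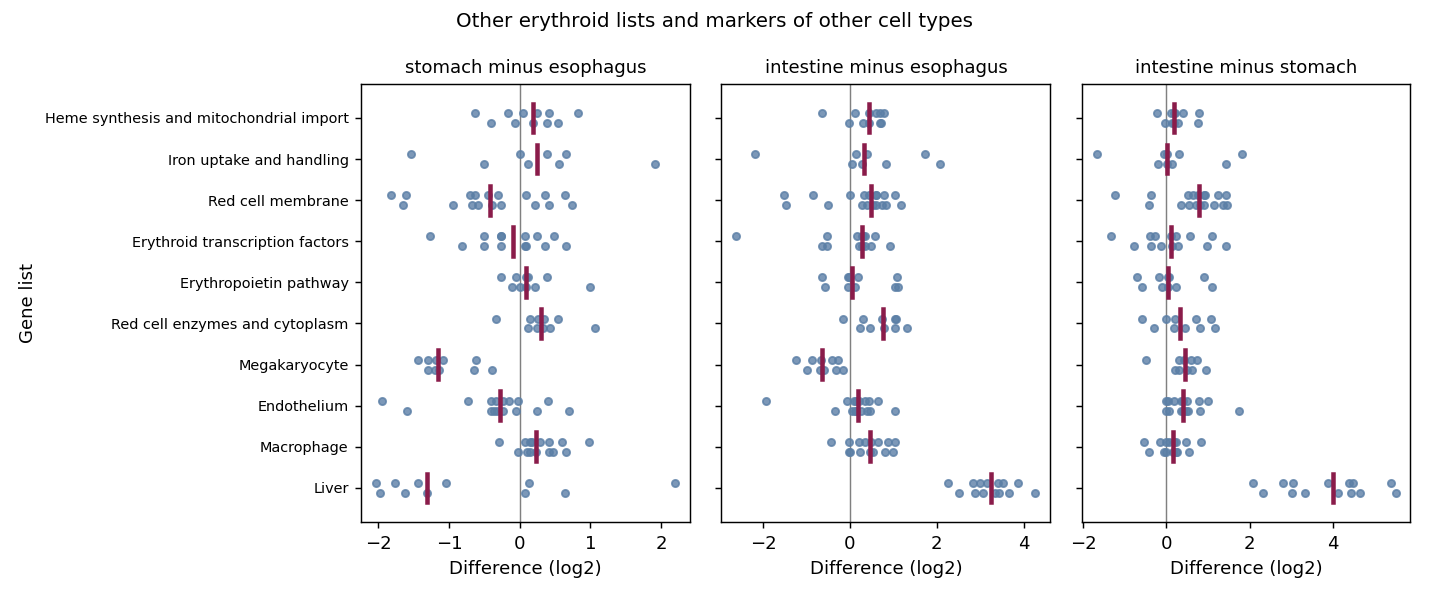
Differences in log2 level between organs (horizontal axes, with their own range in each panel) for the genes of 6 other erythroid lists and 4 marker lists (vertical axis). Each point is a gene, with a bound plotted at its value, and each bar is the list median. Red cell membrane genes lie mostly above 0 for intestine against stomach, and all 14 liver genes lie above 2 in both comparisons with intestine.

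Markers of other cell types moved with some of these values. In the liver list 14 of 14 named genes stood at least 4-fold above esophagus and above stomach in intestine (1.82% and 1.43% of all genes). Their medians were 3.25 and 4.01, with 3 of the 14 as bounds against esophagus and 4 against stomach. The summed level of the liver list, in units of the array's 75th percentile, was 14.3, 12.9 and 121. Alb, the albumin gene of hepatoblasts, stood at −0.42, −2.45 and 2.93. Klf1 and Gata1, like the liver genes, had their highest value in intestine. The part of liver tissue in the erythroid values was not tested.

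Megakaryocyte genes, which share GATA1 as a regulator, were lowest in stomach in 9 of 10 cases, a share not counted over all genes. After normexp correction, whose offset raises dim genes less in intestine than elsewhere, their median of intestine minus stomach turned from 0.45 to −0.16. Of 10 measured, 10 were lower in stomach than in esophagus, 7 of them at least 2-fold (5.71% of all genes), with a median of −1.16. The share of all genes lower there by any amount was not counted, and the median of all genes was 0.15. After normexp correction 1 of 10 was at least 2-fold lower there, beside 2.0% of all genes. Pf4, a platelet chemokine gene, was 2.27-fold higher in esophagus than in stomach. The summed level of the list was 12.9, 5.69 and 8.36. Endothelial genes had medians of −0.28, 0.19 and 0.39 in the 3 comparisons and summed levels of 30.8, 28.9 and 38.1. Macrophage genes had medians of 0.23, 0.46 and 0.16 and summed levels of 8.77, 10.8 and 11.6. Heart genes were far higher in esophagus, with a summed level of 114 against 2.72 in stomach and 1.28 in intestine. The part of blood in vessels or heart in these values was not tested.

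The promoters of members of both patterns are shown for the motifs that GATA1 and KLF1 are known to bind. They run from 250 bases before to 50 bases after the gene's start, from RefSeq on GRCm38.p6, and capitals mark every GATAA and CACCC on either strand (TTATC and GGGTG on the other). The window of Hba-x is chr11:32276350-32276649 on the plus strand, that of Hbb-y chr7:103853158-103853457 on the minus strand, that of Klf1 chr8:84901732-84902031 on the plus strand and that of Gata1 chrX:7967861-7968160 on the minus strand.
Hba-x: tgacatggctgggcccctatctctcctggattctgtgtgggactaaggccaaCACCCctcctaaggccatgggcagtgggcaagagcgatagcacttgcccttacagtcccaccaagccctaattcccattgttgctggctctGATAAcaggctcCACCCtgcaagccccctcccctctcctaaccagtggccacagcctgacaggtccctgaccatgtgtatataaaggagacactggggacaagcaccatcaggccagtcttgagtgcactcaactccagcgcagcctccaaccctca
Hbb-y: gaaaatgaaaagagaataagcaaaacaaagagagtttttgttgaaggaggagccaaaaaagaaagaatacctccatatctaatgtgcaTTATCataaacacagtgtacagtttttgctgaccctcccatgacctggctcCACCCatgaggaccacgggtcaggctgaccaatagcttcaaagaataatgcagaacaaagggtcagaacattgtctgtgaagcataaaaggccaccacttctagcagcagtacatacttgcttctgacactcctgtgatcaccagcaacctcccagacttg
Klf1: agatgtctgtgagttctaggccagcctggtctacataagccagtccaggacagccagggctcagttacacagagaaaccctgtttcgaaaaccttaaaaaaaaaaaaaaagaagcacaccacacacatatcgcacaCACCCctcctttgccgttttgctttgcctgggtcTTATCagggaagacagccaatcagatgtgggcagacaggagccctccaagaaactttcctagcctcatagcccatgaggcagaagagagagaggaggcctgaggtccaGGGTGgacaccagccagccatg
Gata1: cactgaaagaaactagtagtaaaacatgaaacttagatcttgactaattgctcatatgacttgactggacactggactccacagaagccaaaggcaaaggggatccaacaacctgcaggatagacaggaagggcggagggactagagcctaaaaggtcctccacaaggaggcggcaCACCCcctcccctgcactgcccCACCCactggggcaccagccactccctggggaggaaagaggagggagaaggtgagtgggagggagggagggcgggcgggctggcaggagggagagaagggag
Of the 9 genes 7 had a promoter in the table. GATAA was found in 6 of these 7, all but Gata1, against 25.4% of all 32851 promoters of that length. CACCC was found in 7 of 7, against 57.5%. The 2 motifs shared no base in any of the windows. Both patterns of expression are represented among the promoters with both motifs, Hba-x and Hbb-y with the globin order and Klf1 with the intestine highest. A match is a run of letters and not a measured binding site.

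Genes with the most similar profiles were sought among 12687 other genes measured on all 3 arrays, by the Euclidean distance between values centred on their mean. Such likeness over 3 arrays is a description. Nearest to Klf1 were Adamts2 (0.020 log2 units), Tspan18 (0.022) and Pxylp1 (0.039), and 60 genes lay within 0.25 log2 units. Around Gata1 lay 116 genes within that distance, with Nup43 (0.011), Fgd6 (0.018) and Sec24d (0.038) nearest, and around Epor 134, with Gab1 (0.028), Tgif1 (0.036) and Nckap1 (0.049) nearest. Hbb-y had 383 such genes and Slc4a1 3093. None of the nearest genes of Klf1, Gata1 or Epor named here was in the erythroid lists.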

How the data were processed

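Total RNA of 3 organ primordia was hybridised to 1 array each. Each scanner file holds intensity values, and per the file headers the software was Agilent Feature Extraction (version 10.5.1.1), and the processed signal is an intensity after background subtraction and detrending, not scaled between arrays. The deposited table of log2 values held the same signals minus each array's 75th percentile, with column medians of −2.97, −3.17 and −3.47 in esophagus, stomach and intestine and no centring of probes. At least 99.8% of its probes lay within 0.01 of the scanner values after removal of a constant. The 3 arrays lay on 1 slide with 1 scan time, so position and organ cannot be told apart.

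Outlier spots were left out (111, 70 and 77) and log2 signals minus the 75th percentile were averaged per probe. On all 3 arrays 41112 probes could be used. Accessions matched to RefSeq transcripts (GRCm38.p6) named 24342 probes of 16998 genes. A gene was represented by its probe with the highest mean, with the other probes of members given as well. A probe well above background on 1 array only gives a bound. The dim side was set to the larger of its own signal and the lowest signal called above background there. Alternatives were normexp correction (limma 3.58.1, offset 50), quantile, median and spike-in scaling, the deposited table, 2 other filters on dim probes and the mean over probes. Named genes are the 9 members, in each list the 4 genes with the largest measured difference per comparison (all genes of a list with 6 or fewer measured) and the nearest profiles. Epo, and Pf4 in its comparison of esophagus and stomach, fall outside that rule and were named after their values were seen. A gene that the rule names is not reported here. The members and lists were chosen with earlier results of these data known, and the 2-fold threshold, the median over globins and the checks of globin probes and list counts across scalings were added after the data were seen. Only the differences and the 4-fold count were tested on simulated data. The simulation had a single probe per gene, well above background, and noise smaller than the SD between probes. Scalings, bounds, 2-fold counts and values relative to the globins were not tested in this way.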

Additional observations from a re-analysis of the deposited data

How the results depend on the processing

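No paired analysis was possible because each organ has 1 array, and no array could be left out. Of 138 member differences under alternatives that can change them, 29 moved by more than the SD between probes of a gene, 4 turned sign from a value beyond that SD and the others moved by less. In all, 22 turned sign. The 138 include those of the deposited table, which holds the same signals, so they could hardly move. The spike-in scaling, which adds about 1 log2 unit to intestine, gave 1 member at least 4-fold apart from esophagus and 2 from stomach in intestine. At 2-fold it gave 5 and 4, beside 52.4% and 46.1% of all genes. It put the median of members at 1.19 and 0.97 and that of globins at 0.93 and 0.47, with Hba-x and Hbb-bh1 at 0.47 and Hbb-y at 0.27 for intestine against stomach. Megakaryocyte genes then stood at 0.30 against esophagus and heart genes at 0.61 against stomach. Median centring gave medians of 0.76 for members and 0.50 for globins for intestine against esophagus. It put 2 members at least 2-fold apart there, beside 26.6% of all genes higher and 6.77% lower. Quantile normalization also gave 2, beside 13.1% and 9.47%. Normexp correction gave 0 there, beside 4.91% and 13.1%, and 1 for stomach against esophagus (Hbb-y), beside 1.19% and 2.0%. It also gave medians of −0.20 for red cell membrane genes (intestine against esophagus) and −0.16 for megakaryocyte genes (intestine against stomach), with Gata1 at −0.01. Its offset of 50 is the same on every array, so by construction it shrinks the differences of dim genes. It weighs most where the 75th percentile is low (393 in esophagus and 334 in stomach, against 1023 in intestine). After scaling it therefore raises dim genes less in intestine than in the other organs, so these values are not a neutral check. Over all genes, those at least 4-fold higher and lower in intestine than in esophagus numbered 253 and 535, but 93 and 215 with normexp correction, 370 and 367 with quantile normalization, 455 and 296 with median centring and 1037 and 196 with the spike-in scaling. Against stomach the numbers were 198 and 178, and 50 and 61, 229 and 129, 255 and 115, and 682 and 61 in the same order. For stomach against esophagus they were 94 and 217, but 28 and 59 with normexp correction and 125 and 176 with median centring. Without the filter on dim probes they were 184 and 350 there, and 306 and 289 for intestine against stomach. Signals under 50 limit Gata1 in esophagus and stomach, and 4 of 18 membrane genes in esophagus and 8 in stomach.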
